A study of Mus musculus with 33 samples.

Results

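Chromatin bound by Mef2c and chromatin bound by Tbx5 were compared in cells that had received both factors together with Gata4. The comparison took the 4 Mef2c libraries and the 4 Tbx5 libraries, both numbered 2 to 5, of chromatin immunoprecipitation sequencing (ChIP-seq) from cells with all 3 factors, chosen by their sample titles, which is 8 of the 33 libraries of the series. The cells were a single immortalised line of neonatal mouse cardiac fibroblasts (strain Cd-1, genotype alpha-MHC-GFP) that expresses large T antigen. Both groups were infected with retroviruses for Gata4, Mef2c and Tbx5, cultured with sb431542 and xav939, inhibitors of TGF-beta and Wnt signalling, and collected unsorted at day 2, with equal cell numbers per replicate. By their labels, the groups therefore shared every genotype and treatment and differed in the antibody. It was a rabbit monoclonal against Mef2c and a goat polyclonal against Tbx5, so that the factor and its antibody cannot be told apart. For comparison, cells labelled as the same line were used, infected with Mef2c alone (3 libraries, Mef2c ChIP) or with Tbx5 alone (3 libraries, Tbx5 ChIP). They were kept under the same inhibitors and collected at the same day. Gata4 ChIP (6 libraries) and input chromatin (6 libraries) came from cells with all 3 factors, and Gata4 ChIP (4 libraries) also from cells of the same line with Gata4 alone. By the labels, a single line stands for all cells here, and retroviral expression sets the amount of each factor.

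Mef2c is a MADS-box protein that binds A/T-rich DNA as a dimer and drives muscle genes, and Tbx5 is a T-box protein that is required in the developing atria, left ventricle and forelimb. Together with Gata4, a zinc-finger protein, they form the factor set used to turn fibroblasts toward a cardiomyocyte-like state. In heart development these proteins are known to bind many regulatory elements jointly and also to bind elements without each other, so the comparison asks how far their occupied regions coincide when all are present.

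Reads were counted in 30815 regions, of which the median was 234 bp and the longest 1484 bp wide. All coordinates below refer to the mm9 build. The totals over the regions were 383071 to 2377616 in the Mef2c libraries and 580261 to 1431928 in the Tbx5 libraries, against 334761 to 968131 in the single-factor ChIP libraries and 165517 to 301678 in the inputs. Levels are counts-per-million (CPM) values relative to the total of a library over the regions, with libraries in the order 2, 3, 4 and 5 (1, 2 and 3 for the single-factor libraries). No pair of Mef2c or of Tbx5 libraries agreed within sampling noise, whereas Gata4 libraries 1 and 6, inputs 1 and 3 and inputs 2, 4 and 5 did and were each counted as 1 sample, leaving 5 Gata4 samples and 3 inputs. Mef2c and Tbx5 libraries with the same number deviated alike from their group means (r from 0.25 to 0.58 across regions). The 5 regions on Y held 11.7 CPM in number 3 of both groups and 0 to 1.74 in the other libraries. In inputs 1, 3 and 6 they held 37.5, 43.1 and 42.3 CPM, against 0, 10.3 and 0 CPM in inputs 2, 4 and 5. Gata4 libraries 1 to 6 held 194, 3.59, 138, 25.6, 1.06 and 209 CPM there. Whether the cells behind these numbers differed was not tested. The files hold no RNA, so the labelled cell type was not checked against marker genes, and regions were not assigned to genes because no annotation of the mm9 build was used here.

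With all 3 factors present, most tested regions differed in scaled signal between the Mef2c and the Tbx5 ChIP. Of 22901 regions tested, 16431 (71.7%) differed between Mef2c and Tbx5 at an adjusted p under 0.05 by edgeR's quasi-likelihood test. Mef2c was higher at 8403 regions (36.7%), where the log2 fold change had a median of 2.07, and Tbx5 at 8028 (35.1%), where it was -1.82. The median standard error of a log2 fold change was 0.35. Here and below, a higher count may come from more cells with the factor at a region or from more factor per cell, which cannot be told apart. Because the antibodies differ, equal scaled counts do not mean equal amounts of Mef2c and Tbx5, and higher means higher relative signal.

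Most of these differences exceeded a doubling, and leaving out any 1 library gave 15350 to 16985 calls. The log2 fold change went beyond 1 at 7704 of the Mef2c-higher regions and beyond -1 at 7261 of the Tbx5-higher regions. It went beyond 2 at 4432 and beyond -2 at 3253 of them, and beyond 3 at 1349 and beyond -3 at 487. Every Mef2c library was above every Tbx5 library at 6809 of the Mef2c-higher regions, and every Tbx5 library above every Mef2c library at 7047 of the Tbx5-higher regions. The other 6470 tested regions were not called, and 7914 regions had too few counts to be tested. The fitted fold changes use scaling factors from edgeR (TMM), under which the median tested region stood at -0.06, whereas it stood at -0.28 with library totals and at -0.13 with scaling that follows the level.

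**Figure D1:**
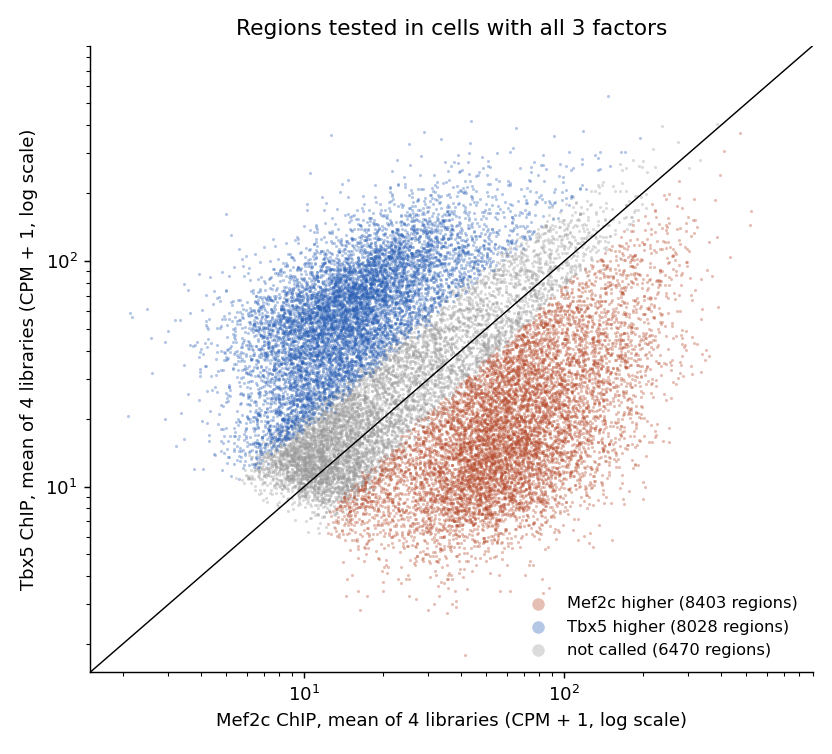
Mean level of Mef2c (x axis) and of Tbx5 (y axis) over 4 libraries each, in CPM + 1 on log scales, for the 22901 regions tested; colours mark the 8403 regions called higher for Mef2c, the 8028 called higher for Tbx5 and the 6470 not called, and the line marks equal levels. The called regions form a cloud on either side of the line.

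The regions with the largest differences were next to empty for the factor that was lower. The choice took only regions where every library of 1 factor lay above every library of the other. The lack of overlap at them was therefore set in advance. At chr12:86263045-86263287 the Mef2c libraries had 54.8, 94.8, 104 and 71.1 CPM and the Tbx5 libraries 5.17, 3.18, 3.13 and 0 CPM. The lowest Mef2c library was above the highest Tbx5 library by a wide margin, and the log2 fold change was 5.28 ± 0.53 (SE, edgeR adjusted p = 2.03e-07). At chr14:26303666-26303868 Mef2c had 73.1, 98.2, 89.0 and 86.2 CPM and Tbx5 1.72, 3.18, 3.13 and 2.10 CPM, a log2 fold change of 5.25 ± 0.39 (SE, edgeR adjusted p = 2.29e-08). At chr1:186289312-186289514 Mef2c had 62.7, 86.4, 84.3 and 93.0 CPM and Tbx5 1.72, 3.18, 1.04 and 3.49 CPM, a log2 fold change of 5.20 ± 0.41 (SE, edgeR adjusted p = 3.87e-08). Neither region had an overlap between the groups, and the Mef2c libraries at both lay close together. At chr1:14350121-14350323 Mef2c had 115, 167, 190.2 and 133 CPM and Tbx5 5.17, 1.06, 7.31 and 5.59 CPM, with a log2 fold change of 5.19 ± 0.41 (SE, edgeR adjusted p = 3.78e-08). This region held the most Mef2c of the 4 and also had the highest Tbx5 mean of the 4, at 4.78 CPM, and the groups were again far apart. The next 6 Mef2c regions had log2 fold changes of 4.83 to 4.93, with Mef2c means of 75.1 to 135 CPM and Tbx5 means of 3.47 to 5.73 CPM. Of the 10, 6 could be tested for Gata4 over input and none was called above it, against 17.1% of all Mef2c-higher regions tested. The Gata4 means at the 10 were 6.49 to 24.7 CPM.

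The largest Tbx5 differences showed the reverse pattern with more spread among the Tbx5 libraries. At chr2:167848939-167849277 Mef2c had 7.83, 2.52, 2.33 and 3.36 CPM and Tbx5 293, 186, 88.8 and 74.7 CPM, with a log2 fold change of -5.32 ± 0.50 (SE, edgeR adjusted p = 1.25e-07). At chr3:149092507-149092720 Mef2c had 7.83, 3.36, 1.74 and 0.421 CPM and Tbx5 176, 107, 26.1 and 26.5 CPM, a log2 fold change of -4.96 ± 0.71 (SE, edgeR adjusted p = 6.13e-06). The groups did not overlap at either region, as the choice required, but Tbx5 libraries 2 and 3 were well above 4 and 5. At chr10:39643052-39643532 Mef2c had 18.3, 12.6, 8.72 and 7.15 CPM and Tbx5 617, 432, 233 and 163 CPM, with a log2 fold change of -4.89 ± 0.41 (SE, edgeR adjusted p = 5.20e-08). At chr16:92282334-92282537 Mef2c had 5.22, 2.52, 2.33 and 1.68 CPM and Tbx5 184, 106, 27.2 and 27.9 CPM, with a log2 fold change of -4.84 ± 0.65 (SE, edgeR adjusted p = 2.96e-06). Tbx5 libraries 2 and 3 again stood highest, as they did at all 10 of these regions, against 1156 of all 8028 Tbx5-higher regions (14.4%). Each of the 10 kept its call without any 1 library. The remaining 6 had log2 fold changes of -4.77 to -4.44, with Mef2c means of 2.45 to 4.95 CPM and Tbx5 means of 78.5 to 130 CPM, and 2 of them, chr18:75970724-75970965 and chr18:75970991-75971236, lie next to each other. Of the 10, 6 could be tested for Gata4 over input and 1 was called above it, against 43.1% of all Tbx5-higher regions tested.

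**Figure D2:**
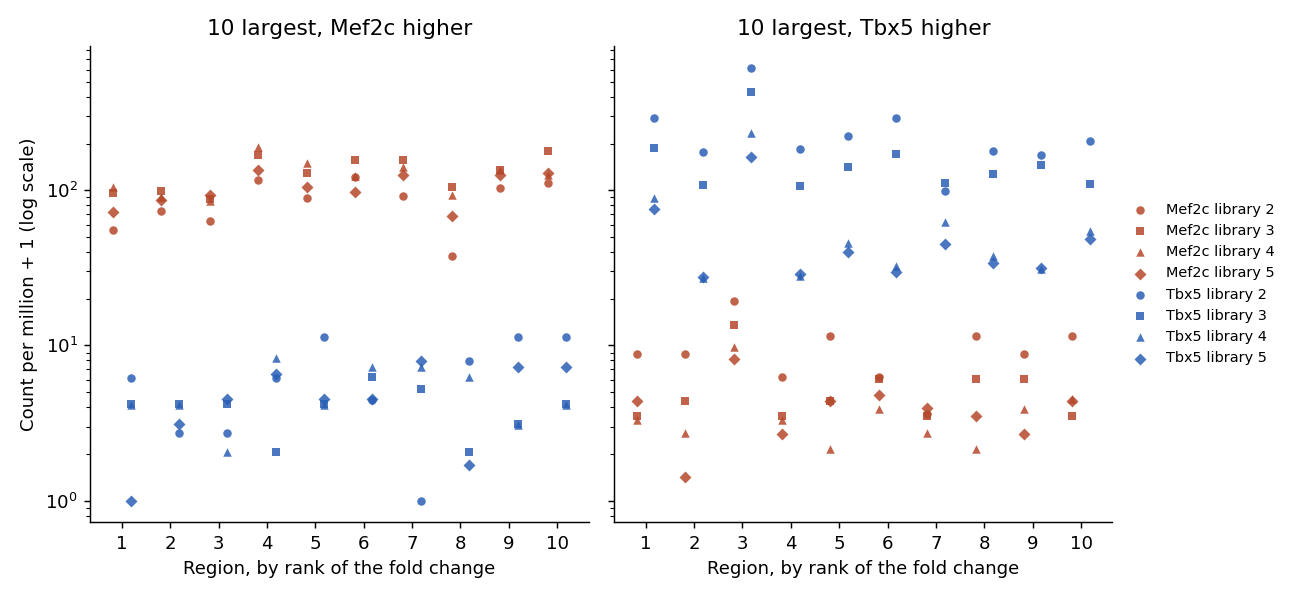
Level in each of the 4 Mef2c libraries (left of each tick) and the 4 Tbx5 libraries (right of each tick), in CPM + 1 on a log scale, at the 10 Mef2c-higher and the 10 Tbx5-higher regions with the largest fold changes, ordered by rank. Mef2c and Tbx5 do not overlap at any of the 20 regions, as the choice of regions required. In the right panel Tbx5 libraries 2 and 3 lie above 4 and 5.

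The 5 fullest Mef2c-higher regions were all above input for Tbx5 too, while 2 of the 5 fullest Tbx5-higher regions were above input for Mef2c. Over the whole classes, both factors were above input at 1115 of 8403 Mef2c-higher and 432 of 8028 Tbx5-higher regions. The fullest, ranked by CPM without regard to width, were 509 to 884 bp and 651 to 1009 bp wide, against class medians of 241 and 275 bp. Both lists were chosen among regions without overlap between the groups. At chr16:43456604-43457112, the fullest Mef2c-higher region by mean, Mef2c had 681, 604, 443 and 361 CPM and Tbx5 126, 158, 197 and 179 CPM. The groups were apart, yet Tbx5 was also above input there, by 2.26 on the log2 scale (edgeR adjusted p = 9.99e-08), and the log2 fold change between the factors was 1.83 ± 0.21 (SE, edgeR adjusted p = 8.03e-07). At chr3:151805873-151806601 Mef2c had 718, 548, 446 and 350.4 CPM and Tbx5 112, 139.9, 159 and 163 CPM, a log2 fold change of 2.00 ± 0.21 (SE, edgeR adjusted p = 3.46e-07). At chr2:90805626-90806167 Mef2c had 467, 509, 411 and 346 CPM and Tbx5 51.7, 91.1, 169 and 99.9 CPM, a log2 fold change of 2.26 ± 0.28 (SE, edgeR adjusted p = 1.27e-06). Mef2c library 2 was the highest at the first 2 of these regions, and at the third the Tbx5 libraries spread over more than a factor of 3. The log2 fold change was smaller at chr15:38473314-38474197 (0.91) and chr15:73166660-73167421 (0.65), where scaling that follows the level gave 0.10 and -0.21 and no call. All 5 regions were also above input for Gata4, against 17.1% of all Mef2c-higher regions tested.

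Among the fullest Tbx5-higher regions was chr8:35160316-35161324, with 141, 136, 124 and 182 CPM in the Mef2c libraries and 632, 572, 414 and 528 CPM in the Tbx5 libraries, a log2 fold change of -1.67 ± 0.21 (SE, edgeR adjusted p = 1.72e-06). At chr6:91492764-91493432 Mef2c had 39.2, 37.8, 47.1 and 46.7 CPM and Tbx5 495, 451, 420.1 and 304 CPM, a log2 fold change of -3.03 ± 0.24 (SE, edgeR adjusted p = 4.20e-08). The groups were far apart at both, and Mef2c was called above input at the first (log2 1.20, edgeR adjusted p = 6.36e-04) but not at the second (log2 0.24, edgeR adjusted p = 0.553). At chr2:166224596-166225268 Mef2c had 57.4, 50.4, 80.3 and 67.7 CPM and Tbx5 338, 408, 493 and 316 CPM, a log2 fold change of -2.35 ± 0.25 (SE, edgeR adjusted p = 3.41e-07). The other 2, chr11:49624480-49625246 and chr4:118918240-118918890, had log2 fold changes of -1.39 and -3.58. Gata4 was above input at 3 of these 5 regions, against 43.1% of all Tbx5-higher regions tested.

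Set against input chromatin of the same cells, Mef2c was above input at 9672 of 28307 regions tested (34.2%) and Tbx5 at 9475 of 28447 (33.3%). Both tests use the same 3 inputs, so their lists are not independent. They were 5474 and 5205 when all 6 input libraries were kept separate, and that for Mef2c was 5832 with library totals. Within the regions called higher for Mef2c, the median log2 level over input was 1.96 for Mef2c and -0.26 for Tbx5. Within those called higher for Tbx5 it was -0.29 for Mef2c and 1.56 for Tbx5. These regions were chosen on the same ChIP libraries, so the medians describe them and test nothing. At the median called region the lower factor thus stood slightly below input on this scale.

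Gata4, whose libraries took no part in the Mef2c and Tbx5 calls, was distributed unevenly between the classes. Whether they took part in choosing the regions that were counted is not known. It was above input at 1332 of 7774 Mef2c-higher regions tested (17.1%), at 3330 of 7724 Tbx5-higher regions (43.1%) and at 2676 of 6368 regions not called (42.0%), against 28.8% of all regions tested for Gata4 over input. The median level per library in the Mef2c-higher regions was 60.8 ± 8.23 CPM for Mef2c (SD, n = 4), 15.4 ± 0.932 CPM for Tbx5 (SD, n = 4), 19.8 ± 3.03 CPM for Gata4 (SD, n = 5) and 30.1 CPM in the inputs (n = 3). In the Tbx5-higher regions it was 13.2 ± 2.16 CPM for Mef2c, 58.1 ± 2.31 CPM for Tbx5, 33.5 ± 1.96 CPM for Gata4 and 30.8 CPM in the inputs. Each of the 5 Gata4 samples had the higher median in the Tbx5-higher regions, by a ratio of 1.38 to 2.33, against 1.00 to 1.07 in the inputs. In cells with Gata4 alone, without retroviral Mef2c or Tbx5, the same ratio was 1.67, 1.71, 1.43 and 1.00 in the 4 Gata4 libraries, the last of them the shallowest of the 4. The part that the antibodies play in this was not tested, and those for Gata4 and Tbx5 were both goat antibodies of the same supplier.

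**Figure D3:**
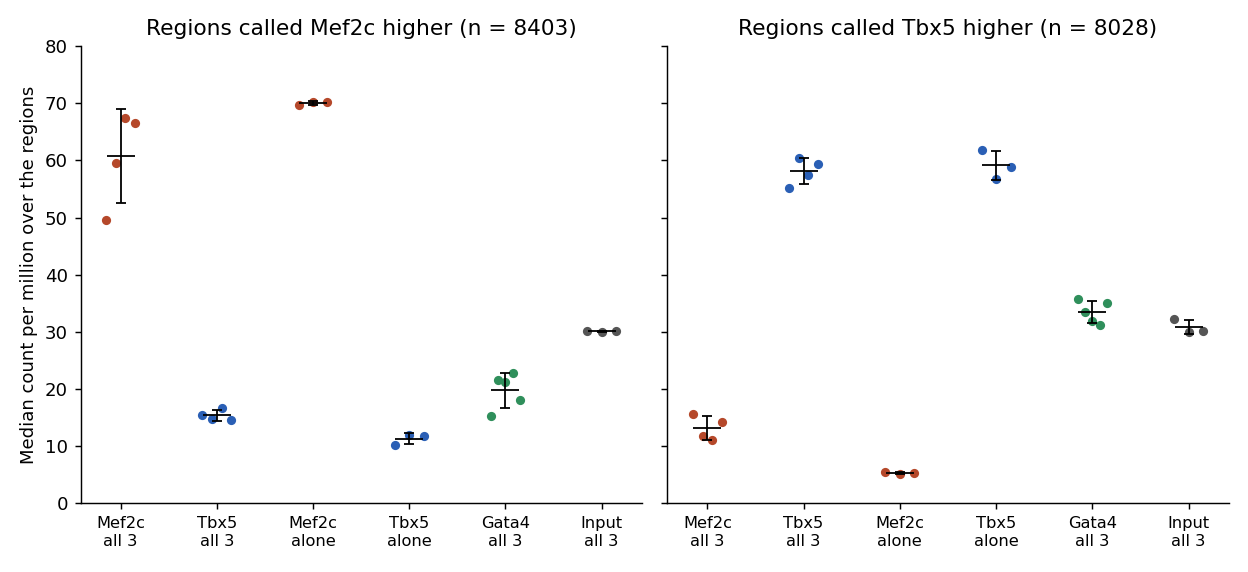
Median level in CPM over the 8403 Mef2c-higher regions (left) and the 8028 Tbx5-higher regions (right) in each library or merged sample; points are libraries, bars the mean ± SD. Gata4 samples lie at 15.3 to 22.7 CPM in the left panel and at 31.2 to 35.8 CPM in the right one, while the inputs differ little between the panels.

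At a smaller group of regions both factors were above input at similar scaled levels. Both were above input at 2953 regions, of which 1115 were higher for Mef2c, 432 were higher for Tbx5 and 1406 were not called. Of all regions tested, 34.2% were above input for Mef2c and 33.3% for Tbx5. Whether 2953 differs from the overlap of unrelated lists was not tested. The lists share their inputs and fell to 5474 and 5205 regions with the input libraries kept separate, so the overlap is a description. At 845 of the 2953 the 95% interval of the log2 fold change lay within -1 and 1, and these are called shared below. Gata4 was above input at 528 of 841 shared regions tested (62.8%), against 28.8% of all regions tested. That test uses the same inputs by which the shared regions were chosen, so the share is a description only. Their median width was 357 bp, against 241 bp for Mef2c-higher and 275 bp for Tbx5-higher regions. The part of width in the choice of shared regions was not tested.

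Among the fullest shared regions, chr9:48794690-48795761 had 449, 598, 435 and 407 CPM for Mef2c and 327, 372, 412 and 359 CPM for Tbx5. The groups overlapped in part and the log2 fold change was 0.57 ± 0.19 (SE, edgeR adjusted p = 0.0137), which lost its call without Mef2c library 3 (adjusted p = 0.0655) and turned to -0.33 with scaling that follows the level. At chr6:37350804-37351416 Mef2c had 349.8, 373, 332 and 277 CPM and Tbx5 203, 274, 363 and 274 CPM, with a log2 fold change whose 95% interval was 0.02 to 0.90 (edgeR adjusted p = 0.0596, and 0.0132 with the libraries paired by number). Tbx5 library 4 lay among the Mef2c libraries there and the other 3 Tbx5 libraries below them. At chr10:93212078-93213251 Mef2c had 298, 243, 256 and 296 CPM and Tbx5 386, 284, 257 and 414 CPM, with an interval of -0.53 to 0.34 (edgeR adjusted p = 0.692). At chr5:135105104-135105782 Mef2c had 345, 324, 243 and 286 CPM and Tbx5 288, 254, 163 and 325 CPM, with an interval of -0.05 to 0.86 (edgeR adjusted p = 0.104, and 0.0207 paired). The groups overlapped at both of these regions. At chrX:166417917-166418386 Mef2c had 439, 491, 339 and 267 CPM and Tbx5 333, 567, 412 and 314 CPM, but the inputs had 438, 284 and 471 CPM there as well. Its log2 fold change of 0.11 (interval -0.37 to 0.58) became -0.77 and was called with scaling that follows the level.

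The same contrast was next read in cells with a single factor, which share no library with those above. The Y regions held 5.31 to 8.71 CPM for Mef2c alone and 11.9 to 18.8 CPM for Tbx5 alone, from 4 to 8 reads a library. Inputs of single-factor cells held 30.8 to 71.9 CPM there, while Mef2c and Tbx5 numbers 2, 4 and 5 with all 3 factors held 0 to 1.74 CPM. Whether the cells of the settings differed in more than the factors was not tested, nor its part in the differences below. Alone, Mef2c was higher at 8477 of 18653 regions tested (45.4%) and Tbx5 at 8479 (45.5%). Of the 7267 regions called higher for Mef2c with all 3 factors and tested alone, 6828 (94.0%) were called higher for Mef2c alone too, 367 were not called and 72 were called higher for Tbx5. Of the 6743 Tbx5-higher regions tested alone, 6594 (97.8%) were called higher for Tbx5, 145 were not called and 4 were called higher for Mef2c. Across the 17392 regions tested in both settings the log2 fold changes had a Pearson r of 0.93 and a Spearman rho of 0.93, given as a description, since the regions are shared and are not independent replicates. The median size of the log2 fold change was 1.77 with all 3 factors and 2.61 alone, and both kept these values with the regions without any count in a group, 9 of which were among those alone, set to the bound that 3 counts allow. The concentration of counts also differed between the settings. The fullest 10% of regions held 55.2 to 55.7% of the counts for Mef2c alone and 42.7 to 45.3% for Tbx5 alone, against 36.9 to 44.5% and 37.5 to 39.6% with all 3 factors, and its part in these sizes was not tested.

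The difference between the settings was tested directly, as the log2 fold change of Mef2c over Tbx5 with all 3 factors minus that alone. It was called positive at 2371 of 26694 regions (8.88%) and negative at 3034 (11.4%). Among the Mef2c-higher regions it was negative at 2260 and positive at 280, and among the Tbx5-higher regions positive at 1315 and negative at 21, so that in both classes most called differences were toward a smaller contrast with all 3 factors. With library totals in place of TMM the split was 4442 positive and 1745 negative, or 71.8% positive against 43.9%, and within the classes 1350 negative and 595 positive for Mef2c-higher regions, and 2492 positive and 5 negative for Tbx5-higher regions. The direction within each class held under both scalings, while the balance between the classes did not. The classes were set on libraries that also enter the difference, so these counts describe them. Leaving out a library moved the total of 5405 calls to 3447 without Tbx5 alone number 1 and to 3599 without Mef2c alone number 1, and the positive calls to 1144 without Mef2c alone number 2 or number 3.

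**Figure D4:**
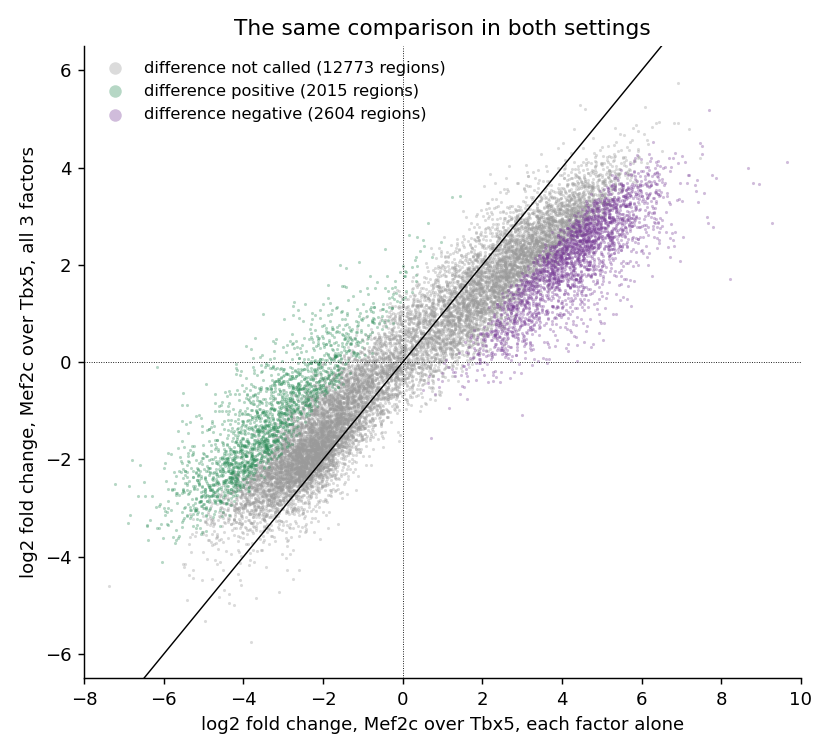
Log2 fold change of Mef2c over Tbx5 with each factor alone (x axis) and with all 3 factors (y axis) for the 17392 regions tested in both settings; colours mark regions whose difference between the settings was called positive, called negative or not called. The solid line marks equal values, and at both ends the points lie nearer to 0 on the y axis than on the x axis.

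In the regions where the difference was most positive, Tbx5 was present in both settings and Mef2c nearly absent alone. At chr2:134439001-134439309 Mef2c had 52.2, 62.9, 75.0 and 58.9 CPM with all 3 factors and 0, 3.10 and 1.06 CPM alone, and Tbx5 had 146, 148, 119 and 131 CPM with all 3 factors and 117, 125 and 111 CPM alone. The 4 Mef2c libraries with all 3 factors were far above the 3 alone, while the Tbx5 libraries of the settings differed little, and the difference was 4.74 ± 0.60 (SE, edgeR adjusted p = 3.93e-06). At chrX:73356607-73356834 Mef2c had 18.3, 13.4, 20.4 and 25.2 CPM with all 3 factors and 0, 0 and 1.06 CPM alone, and Tbx5 had 82.7, 108, 102 and 82.4 CPM with all 3 factors and 76.2, 108 and 91.8 CPM alone. The difference was 4.98 ± 0.82 (SE, edgeR adjusted p = 1.05e-04), a fitted value that rests on a single Mef2c read in the cells with Mef2c alone. At chr3:63627976-63628276 Mef2c had 41.8, 27.7, 60.5 and 31.1 CPM with all 3 factors and 1.09, 2.07 and 1.06 CPM alone, and Tbx5 had 81.0, 78.4, 119 and 74.0 CPM with all 3 factors and 107, 83.6 and 129 CPM alone. The difference was 4.57 ± 0.66 (SE, edgeR adjusted p = 2.57e-05). Within cells with all 3 factors the call at this region was lost without any of Mef2c 3, Mef2c 5, Tbx5 3 or Tbx5 4 (edgeR adjusted p from 0.0545 to 0.198), and that at chr2:134439001-134439309 without Tbx5 3 (0.0512). At chr4:136358347-136358635 and chr8:125937758-125938064 the differences were 4.39 and 4.36, with Mef2c means alone of 1.07 ± 1.06 and 1.80 ± 1.66 CPM (SD, n = 3). With all 3 factors, Mef2c was called above input at the chr2 and chrX regions. It was not at those on chr3, chr4 and chr8 (edgeR adjusted p = 0.0694, 0.489 and 0.0769). Its means there were 40.3, 15.7 and 35.9 CPM, against 42.4, 20.1 and 34.3 CPM in the inputs.

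In the regions where the difference was most negative, Mef2c was present in both settings and Tbx5 had few or no counts alone. At chr14:34946927-34947136 Mef2c had 123, 108, 138 and 116 CPM with all 3 factors and 119.8, 113 and 140.2 CPM alone, and Tbx5 had 6.89, 9.54, 11.5 and 4.89 CPM with all 3 factors and 0, 0 and 0 CPM alone. Mef2c levels overlapped between the settings, while every Tbx5 library with all 3 factors had counts and none alone did. At chr3:36633421-36633841 Mef2c had 36.5, 44.5, 81.4 and 35.8 CPM with all 3 factors and 261, 287 and 262 CPM alone, and Tbx5 had 24.1, 14.8, 10.4 and 10.5 CPM with all 3 factors and 8.24, 0 and 0 CPM alone. Here the Mef2c level also differed, all 4 libraries with all 3 factors being below the 3 alone, and the difference was -4.93 ± 0.73 (SE, edgeR adjusted p = 3.20e-05). Its size rests on Tbx5 alone library 1, without which it was -9.48, a fitted value that is no bound because the other Tbx5 libraries alone had no count. At chr15:62795896-62796194 Mef2c had 49.6, 68.8, 149 and 119 CPM with all 3 factors and 354, 323 and 314 CPM alone, and Tbx5 had 18.96, 13.8, 10.4 and 17.5 CPM with all 3 factors and 2.06, 0 and 4.71 CPM alone. The settings were apart for both factors, and the difference was -4.73 ± 0.74 (SE, edgeR adjusted p = 5.67e-05). Tbx5 had no count alone at chr10:41450846-41451069 either, where it had 13.8, 9.54, 8.36 and 8.38 CPM with all 3 factors. Tbx5 with all 3 factors was called below input at 3 of these 4 regions, and could not be tested against input at chr14:34946927-34947136.

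Direction was opposite between the settings at 76 of 13498 regions called in both. The difference itself was called at all 76, but that test uses the libraries of both calls and is no separate support. At 72 of the 76, Tbx5 was higher alone and Mef2c higher with all 3 factors. Their median levels with all 3 factors were 87.1 CPM for Mef2c and 51.0 CPM for Tbx5, against 9.61 CPM for Mef2c and 43.5 CPM for Tbx5 alone. In cells with all 3 factors the groups did not overlap at 34 of the 72 and at 2 of the other 4. At chr6:142515524-142515831, named after its values were seen, Mef2c had 88.8, 78.0, 59.9 and 71.9 CPM with all 3 factors and 4.36, 0 and 3.19 CPM alone, and Tbx5 had 29.3, 40.3, 30.3 and 41.9 CPM with all 3 factors and 33.0, 23.9 and 25.9 CPM alone. The factors did not overlap in either setting, with log2 fold changes of 1.24 ± 0.27 (SE, edgeR adjusted p = 3.51e-04) with all 3 factors and -2.74 ± 0.54 (SE, edgeR adjusted p = 1.18e-05) alone. In the reverse direction, chr4:140982234-140982477 had 18.3, 21.8, 15.1 and 20.6 CPM for Mef2c and 34.5, 32.8, 43.9 and 39.1 CPM for Tbx5 with all 3 factors, and 10.9, 26.9 and 18.1 CPM for Mef2c and 10.3, 14.9 and 4.71 CPM for Tbx5 alone, where the factors overlapped. Its call with all 3 factors (log2 fold change -0.76 ± 0.30, SE, edgeR adjusted p = 0.0279) was lost without any 1 of the 8 libraries (0.0501 to 0.192). The calls with all 3 factors at the other 3 such regions were lost without 3 to 6 of the libraries.

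Alone, 111 of 690 shared regions tested were higher for Mef2c and 321 higher for Tbx5, against 45.4% and 45.5% of all regions tested alone. The share higher for Tbx5 was thus close to that of all regions, and the share higher for Mef2c was below it. The median log2 fold change alone was -0.55. The difference between settings was positive at 226 of the shared regions and negative at 35, a description again, since the libraries that chose them enter it. At 2 of the fullest shared regions it was negative. At chr10:93212078-93213251 Mef2c had 193, 220.0 and 142 CPM alone and Tbx5 167, 146 and 94.2 CPM alone, and at chr5:135105104-135105782 Mef2c had 197, 196 and 231 CPM and Tbx5 109, 122 and 108 CPM alone. Mef2c was above Tbx5 alone in every library at the second region, and the settings differed by -1.19 ± 0.36 (SE, edgeR adjusted p = 0.0171) and -1.12 ± 0.35 (SE, edgeR adjusted p = 0.0200). Both calls were lost with library totals, the first also without Mef2c alone 2 or Tbx5 alone 3, and the second without any of Tbx5 5, Mef2c alone 3, Tbx5 alone 1 or Tbx5 alone 3 (edgeR adjusted p up to 0.0845).

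Region width went with the direction of the difference. Mef2c was higher at 42.6% of the 10648 tested regions narrower than 250 bp and at 22.9% of the 1484 regions of 500 bp or more. Tbx5 was higher at 30.0% and 43.2% of these regions. Weighted by counts, the mean width was 319, 324, 322 and 325 bp in the Mef2c libraries and 342, 345, 347 and 348 bp in the Tbx5 libraries, with 307 to 309 bp in the inputs. The groups did not overlap (322.6 ± 2.78 bp for Mef2c and 345.5 ± 2.75 bp for Tbx5, SD, n = 4 each), and an exact permutation test gave a two-sided p of 0.0286, the smallest possible, and 0.0429 adjusted over 3 such measures. Sign flips of the numbered pairs gave an exact p of 0.125, also the smallest possible. Alone, the mean width was 303 to 307 bp for Mef2c and 339 to 341 bp for Tbx5.

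The X chromosome held more of the Mef2c signal. Of its 438 tested regions, 255 were higher for Mef2c (58.2%), against 28.6 to 44.9% on the autosomes, and 113 (25.8%) were higher for Tbx5. X regions took 1.41, 1.69, 1.81 and 1.90% of the counts in the Mef2c libraries and 1.06, 1.13, 1.16 and 1.15% in the Tbx5 libraries. The groups did not overlap, and the inputs, at 1.08 to 1.09%, were close to Tbx5. The difference of 0.575 percentage points had an exact two-sided permutation p of 0.0286 (0.0476 adjusted over 20 chromosomes), and an exact p of 0.125 by sign flips of the pairs. Without any 1 Tbx5 library the exact permutation p was 0.0571. Alone the share was 1.92 to 1.98% for Mef2c and 1.02 to 1.06% for Tbx5, and Mef2c was higher at 230 of 351 X regions tested alone (65.5%). Groups were apart on 12 of 20 chromosomes, 8 with a higher share for Mef2c (1, 3, 12, 13, 14, 16, 18 and X) and 4 with a higher share for Tbx5 (5, 11, 17 and 19). Next to X, the highest ratio of the mean shares was 1.21 on chromosome 13 and the lowest 0.864 on chromosome 5.

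**Figure D5:**
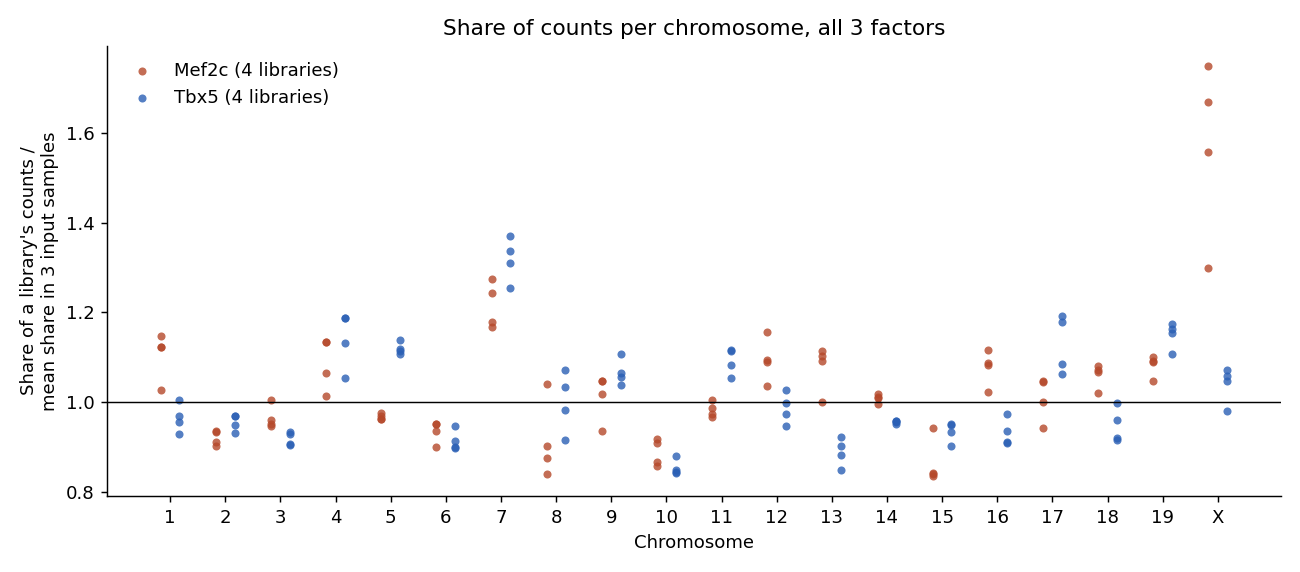
Share of each library's counts that fell on a chromosome, divided by the mean share in the 3 input samples, for the 4 Mef2c libraries (left of each tick) and the 4 Tbx5 libraries (right of each tick). On X the Mef2c libraries, at shares of 1.41 to 1.90%, lie above all Tbx5 libraries, at 1.06 to 1.16%.

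Called regions close to each other more often had the same direction than regions farther apart. Of 1120 neighbouring pairs of called regions less than 1 kb apart, 843 (75.3%) had the same direction, against 55.0% of 2344 pairs at 1 to 10 kb, 55.2% at 10 to 100 kb and 55.6% at 100 to 1000 kb. With gaps of up to 10 kb, 19.4% of Mef2c-higher regions and 30.7% of Tbx5-higher regions stood in runs of 2 or more of their own direction.

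The longest Mef2c run had 7 regions over 28.8 kb on chromosome 18, from 4994459 to 5023227, with 1 Tbx5-higher region in its span. At chr18:4994459-4994682 Mef2c had 214, 209.8, 164 and 155 CPM and Tbx5 36.2, 53.0, 40.8 and 56.6 CPM, a log2 fold change of 2.16 ± 0.24 (SE, edgeR adjusted p = 4.93e-07). At chr18:5002510-5002718 Mef2c had 198, 213, 166 and 133 CPM and Tbx5 6.89, 22.3, 33.4 and 21.6 CPM, a log2 fold change of 3.21 ± 0.33 (SE, edgeR adjusted p = 2.32e-07). The groups were apart at both, and over the run the log2 fold change ranged from 1.15 to 3.21. The lowest belongs to chr18:5007516-5007739, where the groups overlapped and the call was lost without Mef2c library 5 (adjusted p = 0.0560). All 6 regions of the run that were tested alone were higher for Mef2c there, and the difference between the settings was called negative at 5 of the 7. Of all Mef2c-higher regions tested alone, 94.0% were higher for Mef2c there. The difference was called negative at 2260 of all 8403 Mef2c-higher regions.

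The longest Tbx5 runs had 6 regions, of which there were 3. One of them covered 17.9 kb of chromosome 4, from 131616024 to 131633913. At chr4:131632656-131633024 Mef2c had 23.5, 12.6, 26.8 and 24.8 CPM and Tbx5 122, 136, 173 and 117 CPM, a log2 fold change of -2.39 ± 0.30 (SE, edgeR adjusted p = 1.48e-06). At chr4:131633343-131633913 Mef2c had 31.3, 27.7, 29.7 and 34.5 CPM and Tbx5 114, 83.7, 112 and 105 CPM, a log2 fold change of -1.51 ± 0.26 (SE, edgeR adjusted p = 4.30e-05). The groups did not overlap at either. Over the run the log2 fold change ranged from -2.40 to -1.09, Gata4 was above input at 5 of the 6 regions, and the 5 regions tested alone were all higher for Tbx5. Over all Tbx5-higher regions tested, these shares were 43.1% for Gata4 above input and 97.8% for Tbx5 higher alone.

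The concentration of counts did not differ detectably between the factors over all 8 libraries. The fullest 10% of regions held 36.9, 44.5, 44.1 and 40.1% of the counts in the Mef2c libraries and 38.0, 37.5, 39.6 and 37.5% in the Tbx5 libraries, with at most 22.2% in the inputs. Mef2c library 2, the shallowest of the 8, was below every Tbx5 library, and the other 3 were above. The difference of 3.30 percentage points had an exact two-sided permutation p of 0.229, and 4.79 with p = 0.0286, the smallest possible, without that library.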

How the data were processed

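The authors deposited 1 table of raw, unscaled read counts per region. FastQC, the aligner Bowtie2 2.2.4, the counter featureCounts and the build mm9 are named per the submitters' processing notes. How the aligner was set, duplicates handled and regions chosen is not given in the sources used here. Calls therefore depend on how the regions were chosen, and signal outside them was not analysed.

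Groups came from the titles. The labels call the libraries biological replicates. Contrasts used edgeR 4.0.16 (R 4.3.3) quasi-likelihood tests with robust estimation, TMM scaling and a filter (minimum count 10, minimum total 15), two-sided, with Benjamini-Hochberg adjustment over all regions tested and calls at an adjusted p under 0.05. Single values per library used exact permutation tests over samples. Libraries that agree within sampling noise (chi-square, expected counts of 5 or more) were summed. Tests were run on simulated counts in which few regions changed, so scaling where most regions differ was not checked. Library totals are given in the report.

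Same-numbered Mef2c and Tbx5 libraries with all 3 factors deviated together (r 0.25 to 0.58 over 4 pairs, against -0.31 to 0.13 for other pairs), so the numbers pair them. This comes from the data, since no label states a shared batch. Alone and for inputs they did not (r from -0.02 to 0.03).

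Named regions were, among those called, above the median level and without overlap, the 10 with the largest fold change, the 5 fullest and the 5 with the largest difference between settings, each per direction. To these came the 5 fullest shared regions and the longest run of called regions per direction, which need not meet those conditions. Regions of opposite direction, and the width and chromosome measures, were chosen after their values were seen, and the rule and lists were chosen with earlier results of these data known. Gene lists and motifs were not run, for want of an mm9 annotation. Alternatives included DESeq2 1.42.0, other scalings, no filter, thinning and left-out libraries.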

Additional observations from a re-analysis of the deposited data

Results flagged for a closer look

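Among 136 sets of 4 libraries looked at for a library far from the rest, 4 were found, and chance gives about 1 in 20. Tbx5 library 2 had 10.3 CPM at chr10:57841359-57841562, against 3.13 to 3.49 CPM in the other Tbx5 libraries. Mef2c library 2 had 10.4 CPM at chr18:75970991-75971236, against 2.52 to 3.49 CPM, and 20.9 CPM at chr4:131616024-131616287, against 5.23 to 5.87 CPM in the other Mef2c libraries. Tbx5 library 4 had 119 CPM at chr3:63627976-63628276, against 74.0 to 81.0 CPM. In 3 of the 4 the far library was number 2, the shallowest of its group, and the far value belonged to the lower factor.

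The contrast between Mef2c and Tbx5 differed between cells with all 3 factors and cells with a single factor at 5405 regions by the test of the difference itself. Of the 65 named regions, 36 were among them, while of all 26694 regions tested 8.88% were called positive and 11.4% negative. Some were named for this difference, and others for opposite direction in the contrasts that form it. The count therefore describes the list only. Values below are that difference in log2 units, positive where Mef2c stood relatively higher with all 3 factors. Of the regions named for their fold change or level, it was -2.57 at chr1:14350121-14350323, -1.87 at chr16:43456604-43457112, -1.29 at chr3:151805873-151806601 and -2.16 at chr15:38473314-38474197. The 5 fullest Tbx5-higher regions had positive values, of 1.25 at chr8:35160316-35161324, 2.201 at chr6:91492764-91493432, 2.81 at chr2:166224596-166225268, 1.96 at chr11:49624480-49625246 and 2.06 at chr4:118918240-118918890. Among shared regions it was -1.19 at chr10:93212078-93213251 and -1.12 at chr5:135105104-135105782. The regions named for this difference had 4.98 at chrX:73356607-73356834, 4.74 at chr2:134439001-134439309, 4.57 at chr3:63627976-63628276, 4.39 at chr4:136358347-136358635 and 4.36 at chr8:125937758-125938064. On the negative side they had -7.18 at chr10:41450846-41451069, -6.30 at chr14:34946927-34947136, -5.29 at chrX:38986010-38986343, -4.93 at chr3:36633421-36633841 and -4.73 at chr15:62795896-62796194. The first 2 of these rest on no Tbx5 count alone, so the fitted size is no bound.

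In the run on chromosome 18 the difference was -2.02 at chr18:4994459-4994682, -2.68 at chr18:4994764-4995037, -2.10 at chr18:5002286-5002488, -2.48 at chr18:5002510-5002718 and -2.60 at chr18:5022858-5023227. In the run on chromosome 4 it was 2.44 at chr4:131616024-131616287, 1.77 at chr4:131632656-131633024 and 1.59 at chr4:131633343-131633913. Regions of opposite direction had 4.58 at chr9:9420432-9420632, 4.01 at chr6:142515524-142515831 and 3.91 at chr1:140851622-140851822, where Mef2c was higher with all 3 factors. Where Tbx5 was higher with all 3 factors, they had -4.13 at chr13:83802070-83802270, -2.37 at chr4:140982234-140982477, -1.43 at chr2:20367856-20368375 and -1.08 at chr6:38842067-38842596. Leaving out 1 library in turn ended 10 of these calls of a difference in at least 1 case, and 8 of the 14 libraries did so at chr1:14350121-14350323 (log2 -2.72 to -1.97, edgeR adjusted p from 0.05003 to 0.162). Sizes that rest on 1 library were those at chr1:14350121-14350323 (-6.78 without Tbx5 alone library 2), chr3:36633421-36633841 (-9.48 without Tbx5 alone library 1), chrX:38986010-38986343 (-8.03 without Tbx5 alone library 1) and chr18:5002286-5002488 (-3.22 without Tbx5 alone library 1). At the first 3 the remaining Tbx5 libraries alone had no count, so these sizes are no bounds.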

How the results depend on the processing

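The count of regions that differed between Mef2c and Tbx5 with all 3 factors (16431) was 16227 with no filter, 16567 with library totals, 16785 with scaling that follows the level, 16039 with DESeq2 and 16402 in 1 fit of all 6 ChIP groups. It was 14574 with replicates 2, 4 and 5 only and 11912 with libraries thinned to the lowest total. A stricter question, a change beyond 2-fold, gave 11482. Each direction stayed within 1.5 times its main count in all of these. Without 1 library it was 15350 to 16985 (7969 to 8826 higher for Mef2c and 7156 to 8159 for Tbx5, 51.2 to 54.0% for Mef2c). Alone, without 1 library, 16076 to 18521 regions were called (7842 to 9329 for Mef2c, 8159 to 9259 for Tbx5, 48.5 to 51.8% for Mef2c). With the libraries paired by number as a replicate block, all 16431 calls kept their direction and 1784 were added (9211 higher for Mef2c, 9004 for Tbx5). The block gave 16820 calls alone and 7600 differences between settings (3349 positive, 4251 negative).

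The difference between settings depended on scaling and on single libraries. Its share of positive calls, 43.9%, was 71.8% with library totals (4442 positive, 1745 negative), 32.6% with DESeq2 and 33.5% with DESeq2 size factors in edgeR. Positive calls numbered 1491 with no filter and 1551 in 1 fit of all 6 ChIP groups. Without 1 library the calls ran from 3447 to 6217, positive ones from 1144 to 2738, negative ones from 2020 to 3694 and the positive share from 30.5 to 50.4%.

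Calls against input depended on the inputs. Kept separate, they gave 10504 calls for Mef2c (5474 above, 5030 below) and 9761 for Tbx5 (5205 above, 4556 below). Paired by number with inputs 2 to 5, Mef2c had 9104 calls (4698 above, 4406 below) and Tbx5 6338 below input. Library totals gave 5832 above and 14515 below input for Mef2c (28.7% above) and 32.5% above for Tbx5. Without 1 sample, Mef2c had 12732 to 20485 calls (7723 to 10144 above, 5009 to 10341 below, 49.5 to 60.7% above) and Tbx5 15564 to 20520 (8122 to 10033 above, 7442 to 10487 below, 48.4 to 52.2% above). The lowest Mef2c count came without the merged inputs 2, 4 and 5.

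The width difference of -22.9 bp and the X difference of 0.575 percentage points missed the threshold in sign flips of 4 pairs (exact p = 0.125, the smallest possible). Without 1 library they ran from -24.1 to -21.6 bp and from 0.509 to 0.672, and the X difference had an exact permutation p of 0.0571 without any 1 Tbx5 library. The difference in the share held by the fullest 10% of regions, 3.30 points, ran from 2.27 to 4.79, the highest without Mef2c library 2 (exact permutation p = 0.0286).

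Of 1292 recomputed fold changes of named regions with all 3 factors, 1208 kept direction and call, 73 lost the call, 8 gained it and 3 changed sign. Those 3 came with scaling that follows the level, -0.21 at chr15:73166660, -0.77 at chrX:166417917 and -0.33 at chr9:48794690. Of 1300 differences between settings, 1239 kept both, 51 lost the call, 10 gained it and none changed sign. The causes were not tested. Both libraries numbered 2, or both numbered 4, were left out as alternatives chosen after seeing the data, as were all settings for width and X. Depth limited 7914 regions, which could not be tested. Neither the choice of regions nor the antibodies could be varied, and 4 libraries a group allow no exact p under 0.0286.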
